A study of Mus musculus with 6 samples.

Results

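Collagens are the most abundant proteins of the extracellular matrix, and their genes were followed here in RNA-Seq data from mouse craniofacial tissue microdissected at E12.5. The members were chosen by name alone: every entry of the expression table called Col, a number, the letter a and a number. This gave 44 genes of 38553 entries. The table holds FPKM, a fragment count corrected for gene length and for sequencing depth, so levels of different genes can be compared per length. Of the 44 genes, 26 exceeded 5 FPKM in each control or in each mutant and were tested together with all other genes that passed this filter, 10061 in total. The remaining 18 are described by their levels.

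The samples were 3 controls with the genotype Rbfox2 flox/flox and 3 mutants with the genotype Pax3Cre/+:Rbfox2 flox/flox, all at E12.5, and the study compared them to ask what the splicing regulator Rbfox2 does in neural crest. All 6 samples therefore carried floxed *Rbfox2* alleles, and only the mutants carried Cre. The Cre is knocked in at *Pax3*, a gene of the dorsal neural tube, neural crest and somites, so cells of the face that never expressed *Pax3* keep *Rbfox2*. Since the controls had no Cre, loss of *Rbfox2* and the knock-in at *Pax3* cannot be told apart. The dissected tissue was sequenced whole. A lower level can mean fewer cells of a type or less RNA per cell, and these cannot be told apart.

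A collagen molecule is built of chains wound around each other, and the winding requires the repeat Gly-X-Y, with glycine at its head. Fibrillar collagens (types I, III and V and, in cartilage, II and XI) carry a long unbroken helix and pack into fibrils. Type IV forms the sheet of basement membranes below epithelia and around vessels, type VI forms beaded filaments around cells, and fibril-associated collagens such as types IX, XII and XIV sit on the fibril surface. At this age the face consists largely of mesenchyme, mostly of neural crest origin, which makes types I and III, with condensations that begin to make the cartilage collagens.

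The longest run of the repeat was far longer in the interstitial fibrillar than in the basement membrane genes. In the transcript with the longest complete coding sequence of each gene (GENCODE M21), the longest run of Gly-X-Y was 216 to 344 triplets in the 8 interstitial fibrillar genes. In the 9 basement membrane genes the longest run was 30 to 75 triplets, and the repeat was broken into 11 to 27 runs of at least 5 triplets. The other classes overlapped with one or both of these, with longest runs of 60 to 339 triplets in the 7 cartilage genes and of 37 to 87 in the 6 beaded filament genes. *Col1a1* had a run of 338 triplets, *Col3a1* of 344, *Col2a1* of 339 and *Col4a1* of 40. *Col26a1*, the third gene by level, had the shortest longest run of all 44, with 23 triplets that made up, with its other run, 23.2% of its 440 residues.

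The genotypes were checked first. *Rbfox2* stood at 58.4, 65.0 and 61.3 FPKM in control replicates 1, 2 and 3 and at 38.1, 36.3 and 34.3 FPKM in mutant replicates 1, 2 and 3. Every mutant was below every control. The log2 fold change was -0.75 ± 0.079 (SE, n = 3 per group), with a limma adjusted p = 0.138. The control values of *Pax3* were 8.84, 11.9 and 11.1 FPKM and the mutant values 8.62, 7.59 and 8.36 FPKM, a log2 fold change of -0.33 ± 0.118 (SE) and an adjusted p of 1.0. All log2 fold changes are on the scale log2(FPKM + 1), mutant against control, which understates the change of low genes.

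Samples of the same genotype also differed from each other. The median size of the log2 difference over all genes tested was 0.164 to 0.187 between a first replicate and another sample of its group, against 0.0824 and 0.0845 between replicates 2 and 3. Genes of cranial mesenchyme (10 of 10 in the table, *Prrx1* and *Twist1* among them) summed to 459.5 to 523.9 FPKM in controls and 418.0 to 511.2 FPKM in mutants, so the mesenchyme of the face was present in every sample. RNA of other tissues was present at unequal levels. The summed FPKM of 8 skeletal muscle genes was 143.7, 360.8 and 227.5 in controls and 135.5, 206.4 and 163.0 in mutants. That of 8 forebrain progenitor genes was 555.1, 333.4 and 494.0 in controls and 480.7, 608.3 and 476.4 in mutants. The 10 neuronal genes summed to 837.8 to 901.4 FPKM in controls and 972.6 to 1075 FPKM in mutants, without overlap. The log2 fold change was above 0 in 9 of 10 neuronal genes and in 5 of 5 erythroid genes tested. It was below 0 in 6 of 6 skeletal muscle genes tested, and in 47.2% of all genes tested. At an unadjusted p under 0.05 in limma, 4 of 10 neuronal genes were higher in mutants, against 0.706% of all genes. No erythroid or skeletal muscle gene reached this, and 0 of all these genes passed an adjusted p of 0.05 in limma. The 6 erythroid genes in the table summed to 5055 to 10180 FPKM in controls and 6922 to 10400 FPKM in mutants, and the 5 choroid plexus genes to 13.5 to 85.0 FPKM and 43.1 to 93.3 FPKM. The 4 Y-linked genes summed to 57.7 and 55.5 FPKM in mutant replicates 1 and 2 and to at most 0.217 FPKM in the other samples.

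The most abundant collagens were chains of types I and III, with *Col26a1* among them. Ranked by the mean of all 6 samples, the order was *Col3a1*, *Col1a2*, *Col26a1*, *Col1a1*, *Col2a1*, *Col4a1*, *Col5a2*, *Col4a2*, *Col6a2*, *Col18a1*, *Col9a1* and *Col5a1*. *Col3a1*, at 281.0 FPKM, ranked 259 among all entries of the table, and *Col5a1*, at 43.9 FPKM, ranked 2298. The first 3 ranks were the same in controls and mutants. *Col1a1* and *Col2a1* exchanged ranks, with *Col1a1* at rank 4 in controls and rank 5 in mutants.

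*Col3a1*, which forms the homotrimeric type III fibril of soft tissue, stood at 208.5, 377.9 and 313.4 FPKM in controls and at 220.1, 307.9 and 257.9 FPKM in mutants. The groups overlapped, and the first replicate was the lowest of each group. *Col1a2*, the shorter chain of type I collagen, stood at 249.2, 333.4 and 265.0 FPKM in controls and 250.5, 272.8 and 224.5 FPKM in mutants. These neighbours in the order did not differ beyond their spread, since the mean of *Col3a1* was 299.9 ± 85.5 FPKM and that of *Col1a2* was 282.5 ± 44.8 FPKM (SD, n = 3) in controls. *Col26a1*, a short collagen of the matrix first described in testis and ovary, followed at 125.8, 162.9 and 142.7 FPKM in controls and 126.3, 133.5 and 119.1 FPKM in mutants.

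**Figure D1:**
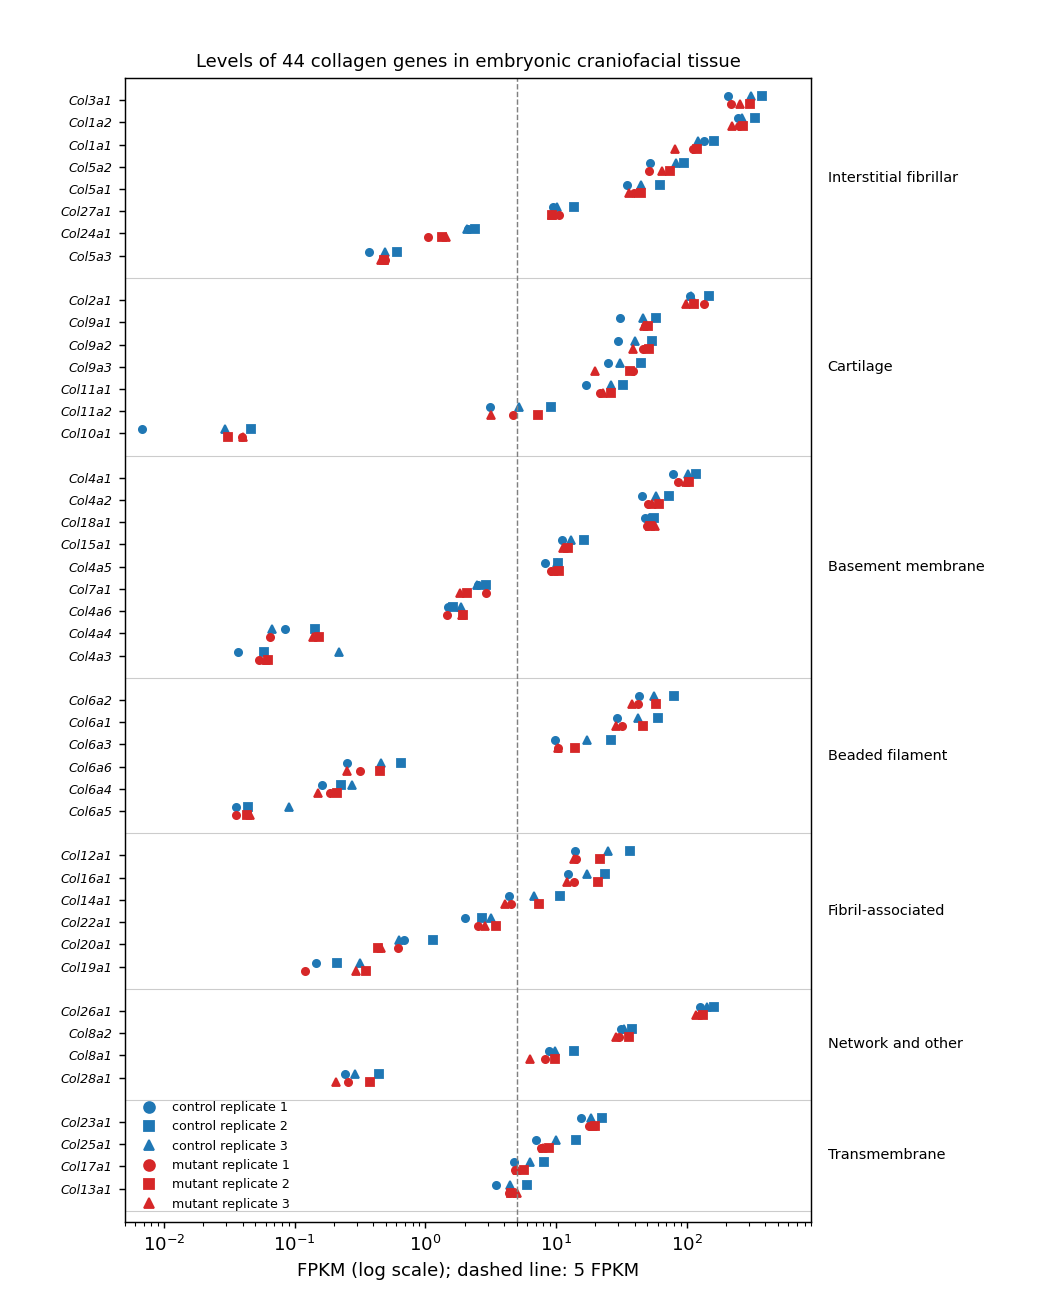
FPKM (log axis) of the 44 collagen genes in the 6 samples, controls in blue and mutants in red, with genes grouped by class and ordered by mean level. Levels span from 281.0 FPKM for *Col3a1* to 0.0323 FPKM for *Col10a1*, and the blue square of control replicate 2 is the rightmost point in most genes above the dashed line at 5 FPKM.

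*Col1a1* codes for the chain present in 2 copies in each type I molecule. It stood at 134.8, 162.1 and 123.3 FPKM in controls and at 112.7, 121.2 and 82.1 FPKM in mutants. All 3 mutants were below all 3 controls, with a gap between 121.2 and 123.3 FPKM. The mean of the mutants was 75.2% of that of the controls, and the log2 fold change was -0.42 ± 0.169 (SE; limma adjusted p = 1.0). With the replicate number as a block, which treats samples of the same number as pairs though no label does, the SE was 0.0711 and the limma adjusted p = 0.556. An exact permutation test on the FPKM gave p = 0.1, the smallest that 3 samples against 3 allow.

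Among the other interstitial fibrillar genes, the type V chains, which set the diameter of type I fibrils, overlapped between the groups. *Col5a2* stood at 52.9, 95.0 and 83.4 FPKM in controls and 51.2, 74.1 and 64.6 FPKM in mutants, a log2 fold change of -0.25 ± 0.231 (SE). *Col5a1* stood at 35.2, 62.5 and 44.9 FPKM in controls and 39.7, 44.6 and 36.5 FPKM in mutants, a log2 fold change of -0.20 ± 0.197 (SE). In both genes the mutant values lay inside the range of the controls or just below it. *Col27a1*, a fibrillar collagen with a shorter helix, was at 9.54 to 13.9 FPKM in controls and 9.27 to 10.6 FPKM in mutants. *Col5a3* was below 1 FPKM in every sample. *Col24a1*, a fibrillar collagen linked to early bone and cornea, was below the filter, at 2.12, 2.41 and 2.08 FPKM in controls and 1.04, 1.33 and 1.43 FPKM in mutants. Every mutant was below every control. It was not in the main test. With a filter of 1 FPKM, its log2 fold change was -0.50 ± 0.108 (SE; limma adjusted p = 1.0).

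In the cartilage collagens, mutant and control values overlapped in every gene tested. *Col2a1*, the main fibril of cartilage, stood at 106.5, 149.8 and 107.5 FPKM in controls and 136.9, 114.1 and 99.7 FPKM in mutants, so the groups overlapped almost fully (log2 fold change -0.046 ± 0.170, SE). *Col9a1*, a chain of the type IX collagen that decorates type II fibrils, stood at 31.0, 58.7 and 46.5 FPKM in controls and 47.8, 50.8 and 47.0 FPKM in mutants. Its mutants lay within the range of its controls. *Col9a2* was at 29.9, 54.6 and 40.2 FPKM in controls and 46.4, 52.0 and 38.7 FPKM in mutants. *Col9a3* was at 25.2, 44.4 and 31.0 FPKM in controls and 39.0, 37.0 and 20.0 FPKM in mutants, and mutant replicate 3 was the lowest of all 6. *Col11a1*, whose chain nucleates type II fibrils, was at 17.0 to 32.8 FPKM in controls and 21.6 to 26.3 FPKM in mutants. *Col10a1*, the collagen of hypertrophic cartilage, was at no more than 0.0463 FPKM in any sample. The 8 cartilage marker genes that are no collagens (*Sox9*, *Acan* and *Matn1* among them) summed to 60.3, 76.7 and 59.0 FPKM in controls and 77.3, 65.0 and 46.5 FPKM in mutants, the same order of samples within each group as *Col2a1*, apart from the close pair of control replicates 1 and 3. Whether the amount of cartilage in the dissections sets these values was not tested.

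Type IV collagen led the basement membrane class. *Col4a1* stood at 79.1, 118.7 and 103.3 FPKM in controls and 85.4, 105.0 and 99.1 FPKM in mutants. *Col4a2*, its partner chain, stood at 45.5, 73.8 and 57.9 FPKM in controls and 50.7, 61.6 and 54.4 FPKM in mutants. Mutant and control values overlapped for each, with log2 fold changes of -0.042 ± 0.158 and -0.063 ± 0.173 (SE). *Col18a1*, whose C-terminal fragment is endostatin, had the narrowest span of the 12 highest genes, at 48.2, 56.5 and 51.9 FPKM in controls and 49.8, 52.4 and 57.8 FPKM in mutants. *Col15a1* was at 11.2 to 16.3 FPKM in controls and 11.3 to 12.3 FPKM in mutants, and *Col4a5* at 8.26 to 10.4 FPKM and 9.11 to 10.6 FPKM. *Col4a3* and *Col4a4*, the chains of the mature glomerular membrane, did not exceed 0.219 FPKM in any sample. The 7 endothelial marker genes, whose cells make type IV collagen, summed to 105.0, 124.9 and 113.3 FPKM in controls and 109.7, 120.8 and 110.4 FPKM in mutants, which ranks the 6 samples in the same order as *Col4a1* and *Col4a2* do. Whether the amount of vessel in the dissections sets these values was not tested.

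The chains *Col4a1* and *Col4a2* kept a nearly fixed proportion. Their ratio was 1.74, 1.61 and 1.78 in controls and 1.68, 1.71 and 1.82 in mutants. The highest was 1.13 times the lowest, the smallest such spread of the 9 chain ratios examined. The genes lie head to head on chromosome 8 of GRCm38, *Col4a1* on the minus strand (chr8:11198423-11312826) and *Col4a2* on the plus strand (chr8:11312805-11449287). Their start sites are 21 bases apart, and the RefSeq windows from 250 bases before to 50 bases after each start (build GRCm38.p6) share 78 bases. The windows are shown because the start sites of the pair lie so close. Whether a shared promoter keeps the ratio steady was not tested. *Col6a1*/*Col6a2*, which lie in the same direction, spread by 1.17 times. Outside the 9 ratios, the tail to tail pair *Col5a2*/*Col3a1* spread by 1.14 times and the head to head pair *Col4a5*/*Col4a6* by 1.27 times. Col4a1 is read at chr8:11312777-11313076 on the minus strand and Col4a2 at chr8:11312555-11312854 on the plus strand. Capitals mark CCAAT boxes (CCAAT) and GC boxes (GGGCGG), on either strand.
Col4a1: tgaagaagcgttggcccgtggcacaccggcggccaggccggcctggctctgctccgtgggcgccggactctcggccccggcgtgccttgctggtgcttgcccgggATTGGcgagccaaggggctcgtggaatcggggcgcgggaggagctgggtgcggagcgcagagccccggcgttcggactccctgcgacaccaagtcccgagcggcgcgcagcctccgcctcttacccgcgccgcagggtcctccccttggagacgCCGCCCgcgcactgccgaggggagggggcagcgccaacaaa
Col4a2: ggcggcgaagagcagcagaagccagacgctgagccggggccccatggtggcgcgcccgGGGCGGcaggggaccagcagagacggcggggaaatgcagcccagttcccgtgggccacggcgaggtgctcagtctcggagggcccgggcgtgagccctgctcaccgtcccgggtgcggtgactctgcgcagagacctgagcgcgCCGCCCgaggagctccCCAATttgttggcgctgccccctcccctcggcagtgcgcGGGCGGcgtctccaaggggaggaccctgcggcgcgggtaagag

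Neither window held TATAAA. *Col4a1* had 1 CCAAT box and 1 GC box, and *Col4a2* had 1 CCAAT box and 3 GC boxes. The GC box of *Col4a1* is the same site as the last GC box of *Col4a2*, since it lies in the bases that the windows share. The windows of the highest fibrillar genes are shown as a contrast, with TATAAA also in capitals: Col1a2 at chr6:4505368-4505667 and Col3a1 at chr1:45311288-45311587, both on the plus strand.
Col1a2: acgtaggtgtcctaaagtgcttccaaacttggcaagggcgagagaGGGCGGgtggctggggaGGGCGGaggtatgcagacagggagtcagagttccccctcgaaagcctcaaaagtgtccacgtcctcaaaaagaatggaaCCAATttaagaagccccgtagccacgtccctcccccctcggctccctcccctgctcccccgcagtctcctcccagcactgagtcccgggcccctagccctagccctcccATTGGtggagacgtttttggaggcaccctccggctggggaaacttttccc
Col3a1: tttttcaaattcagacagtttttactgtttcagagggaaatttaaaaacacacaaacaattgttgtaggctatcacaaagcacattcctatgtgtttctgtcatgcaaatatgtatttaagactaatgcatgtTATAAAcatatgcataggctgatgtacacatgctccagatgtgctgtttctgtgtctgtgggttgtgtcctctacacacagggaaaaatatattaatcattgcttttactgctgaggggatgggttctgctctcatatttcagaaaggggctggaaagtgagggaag

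The *Col1a2* window held 2 CCAAT boxes and 2 GC boxes and was 61.0% G and C. The last of these CCAAT boxes begins on the assigned start itself. The window begins at chr6:4505368, after the GENCODE start of the gene at chr6:4504814, so the bases around that start were not searched. The *Col3a1* window held 1 TATAAA and neither of the other motifs, and was 37.7% G and C, against 74.0% for *Col4a1* and 73.7% for *Col4a2*. This TATAAA lies well before the assigned start and not next to it. RefSeq windows were at hand for 35 of the 44 genes, 38 in all. GC boxes were in 23 of the 38 (60.5%) and in 35.7% of all 32851 windows. CCAAT was in 13 of 38 (34.2%) against 37.4%, and TATAAA in 5 of 38 (13.2%) against 13.6%. The median G and C content was 59.8% in the collagen windows and 52.7% in all. A match is a string of letters and not a shown binding site.

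The other classes were the beaded filament, fibril-associated, network-forming and transmembrane genes. Type VI collagen is built of 3 chains. *Col6a2* stood at 43.0, 80.6 and 56.5 FPKM in controls and 42.6, 58.5 and 38.1 FPKM in mutants. *Col6a1* stood at 29.3, 60.9 and 42.8 FPKM in controls and 32.3, 46.6 and 29.0 FPKM in mutants. *Col6a3*, the longest chain, stood at 9.90, 26.2 and 17.4 FPKM in controls and 10.3, 14.1 and 10.4 FPKM in mutants, a log2 fold change of -0.49 ± 0.311 (SE). In all 3 genes, control replicate 1 lay within the range of the mutants or below it, and control replicates 2 and 3 were higher than control replicate 1. *Col6a4*, *Col6a5* and *Col6a6* did not exceed 0.649 FPKM.

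*Col12a1*, a fibril-associated collagen of tendon and perichondrium, showed the same arrangement, at 13.9, 37.1 and 25.1 FPKM in controls and 14.3, 21.7 and 13.8 FPKM in mutants (log2 fold change -0.51 ± 0.336, SE). *Col16a1* was at 12.4 to 23.9 FPKM in controls and 12.2 to 21.2 FPKM in mutants. *Col14a1*, *Col19a1*, *Col20a1* and *Col22a1* did not pass the filter. Of these, *Col20a1* had every mutant (0.433 to 0.621 FPKM) below every control (0.625 to 1.14 FPKM). Of the network-forming genes, *Col8a1*, a short-chain collagen of vessels and the cornea, stood at 8.90, 13.6 and 9.88 FPKM in controls and 8.26, 9.86 and 6.34 FPKM in mutants (log2 fold change -0.37 ± 0.190, SE). *Col8a2* was at 31.3 to 38.1 FPKM in controls and 28.7 to 36.0 FPKM in mutants. The transmembrane collagens were led by *Col23a1*, at 15.6, 22.6 and 18.6 FPKM in controls and 17.9, 19.9 and 19.4 FPKM in mutants. *Col25a1*, which is made by developing muscle and neurons, was at 6.99 to 14.3 FPKM in controls and 7.72 to 8.85 FPKM in mutants.

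The comparison of mutants with controls gave no collagen gene past an adjusted p of 0.05 in limma, as in the table as a whole, where 0 of 10061 genes (0.0%) passed. At an unadjusted p under 0.05, 1 of 26 collagen genes, *Col1a1*, was lower in mutants, against 0.954% of all genes tested, and 0 were higher, against 0.706%. Groups without overlap and with mutants lower were found for 1 of 26, against 2.37% of all genes, and with mutants higher for 0 of 26, against 2.63%. The log2 fold change was below 0 for 21 of 26 collagen genes, against 47.2% of all genes. Its median was -0.17 over the collagens and 0.0057 over all genes, while the median SE was 0.194 for collagens and 0.105 for all genes. Since collagen genes share cells and samples, the 26 are not independent replicates.

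**Figure D2:**
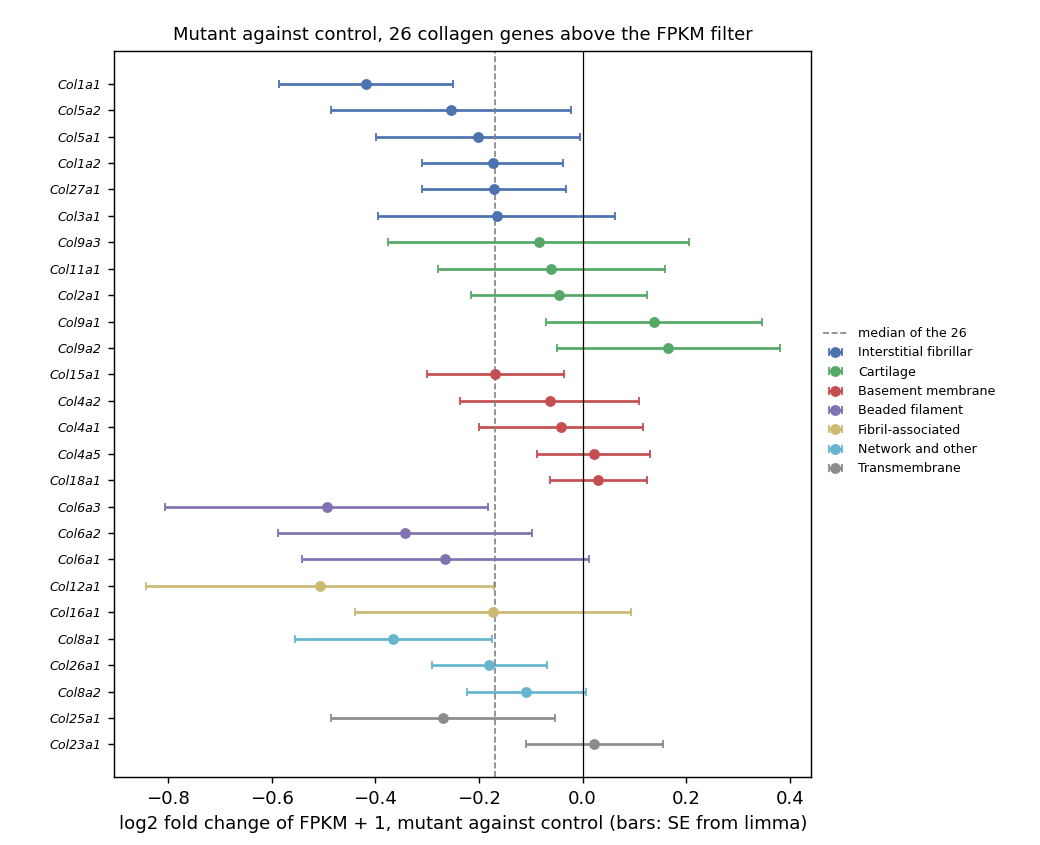
Log2 fold change of FPKM + 1, mutant against control, for the 26 collagen genes above the filter, by class, with the SE from limma (n = 3 per group). Interstitial fibrillar and type VI genes lie left of 0, cartilage and basement membrane genes scatter about 0, and the dashed line is the median of -0.17.

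With the replicate number as a block, 7 of 26 collagen genes had an unadjusted p under 0.05 in limma and were lower in mutants, against 3.70% of all genes, and 0 were higher, against 2.31%. They were *Col1a1*, *Col8a1*, *Col5a2*, *Col6a2*, *Col12a1*, *Col6a3* and *Col26a1*, in order of p. Their blocked SE ranged from 0.0709 for *Col26a1* to 0.174 for *Col6a3*. Their adjusted p ranged from 0.556 for *Col1a1* to 0.817 for *Col26a1*. The pairing behind this block was taken from these same values. Across genes, deviations from the group mean correlated at 0.258 between the samples numbered 2, below the 0.401 of control 3 with mutant 2. Without the block, the count of 1 of 26 became 13 of 29 when control replicate 1 was left out (against 3.75% of all genes), since *Col11a2*, *Col14a1* and *Col17a1* then passed the filter. Of the 26 genes themselves, 11 were then counted. The count was 0 of 26 when control replicate 2 or mutant replicate 3 was left out. The median over the 26 genes was -0.28 with control replicate 1 left out. It was 0.00106 when control replicate 2 was the one left out. Single genes moved likewise. Without control replicate 2, the log2 fold change was -0.19 for *Col12a1*, -0.18 for *Col6a3*, -0.11 for *Col6a2* and -0.084 for *Col5a2*, and with control replicate 1 left out it was -0.87, -0.84, -0.55 and -0.50. That of *Col1a1* was -0.25 on leaving out mutant replicate 3, and -0.31 and -0.44 on leaving out control replicates 2 and 1. The direction of the collagen genes as a group thus rested on which of these controls was used.

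Within replicate number 1, the mutant was lower than the control in 5 of 26 collagen genes, against 54.6% of all genes. Within number 2 it was lower in 25 of 26, against 48.4%, and within number 3 in 23 of 26, against 44.3%. The median log2 difference was 0.12, -0.30 and -0.25 in numbers 1, 2 and 3. The 5 genes that were lower within all 3 numbers, against 13.1% of all genes, were *Col1a1*, *Col5a2*, *Col6a2*, *Col8a1* and *Col8a2*. For *Col1a1* the differences were -0.26, -0.42 and -0.58. For *Col5a2* they were -0.044, -0.35 and -0.36, and for *Col6a2* -0.016, -0.46 and -0.55, so that number 1 added little to either. The cartilage genes differed most between numbers. *Col9a1*, *Col9a2* and *Col9a3* were at 0.61, 0.62 and 0.61 within number 1, and *Col9a3* was at -0.61 within number 3.

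**Figure D3:**
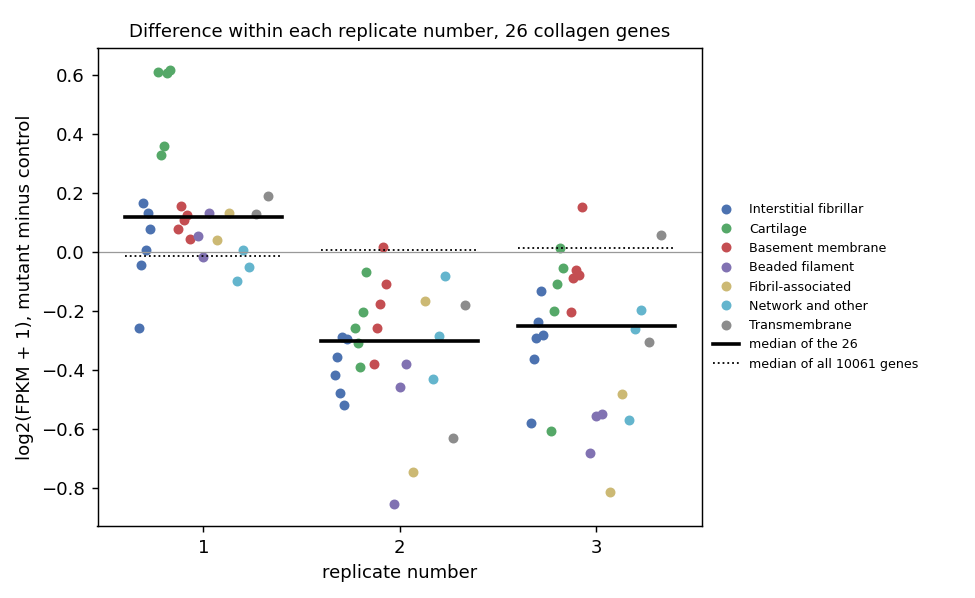
Log2(FPKM + 1) of the mutant minus that of the control with the same replicate number, for the 26 collagen genes, colored by class. Solid lines mark the collagen medians of 0.12, -0.30 and -0.25, and dotted lines the medians of all 10061 genes, which lie between -0.014 and 0.015.

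The controls themselves spread widely in collagen genes. The highest control was a median of 1.69 times the lowest over the 26 genes, against 1.19 times over all genes, while the mutants spread by a median of 1.24 times against 1.18. Control replicate 2 was the highest control in 26 of 26 collagen genes, against 33.2% of all genes, and the highest of all 6 samples in 24 of 26, against 21.1%. Control replicate 1 was the lowest control in 25 of 26, against 50.5%. The summed FPKM of the 44 genes was 1415, 2188 and 1737 in controls and 1515, 1758 and 1447 in mutants. This was 0.256%, 0.386% and 0.300% of all FPKM in controls and 0.287%, 0.307% and 0.245% in mutants. The 8 skeletal muscle genes and the 8 genes of surface epithelium (128.2, 221.1 and 190.8 FPKM in controls, 128.1, 174.3 and 135.2 FPKM in mutants) followed the same order among controls. So did the genes of cranial mesenchyme (459.5, 523.9 and 485.4 FPKM in controls), endothelium (105.0, 124.9 and 113.3 FPKM) and bone (26.6, 38.2 and 27.2 FPKM). The neuronal, forebrain progenitor, choroid plexus and erythroid genes had the reverse order, and the cartilage markers had neither. The part of these tissues in the spread of the collagen genes was not tested.

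By class, the share of the summed collagen FPKM differed little. The interstitial fibrillar genes made up 48.9%, 47.9% and 48.5% in controls and 45.3%, 47.3% and 46.8% in mutants, means of 48.5 ± 0.533% and 46.5 ± 1.04% (SD, n = 3), without overlap. The cartilage genes made up 15.0%, 16.0% and 14.8% in controls and 19.6%, 16.4% and 16.0% in mutants, and mutant replicate 3 lay just at the highest control. The basement membrane genes made up 13.9%, 12.8% and 13.9% in controls and 13.9%, 14.0% and 16.3% in mutants, and the lowest mutant lay just at the highest control. The fibrillar share was different between mutants and controls by -2.0 percentage points, and by -1.23 points when *Col1a1* and *Col1a2* were left out of it. The cartilage share was higher by 2.03 points, and by 0.901 points without mutant replicate 1. These shares sum to 100% with the other classes and are not independent of each other. *Col1a1*, *Col1a2* and *Col3a1* alone made up 39.9% to 41.9% of the collagen FPKM in controls and 38.5% to 39.9% in mutants.

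**Figure D4:**
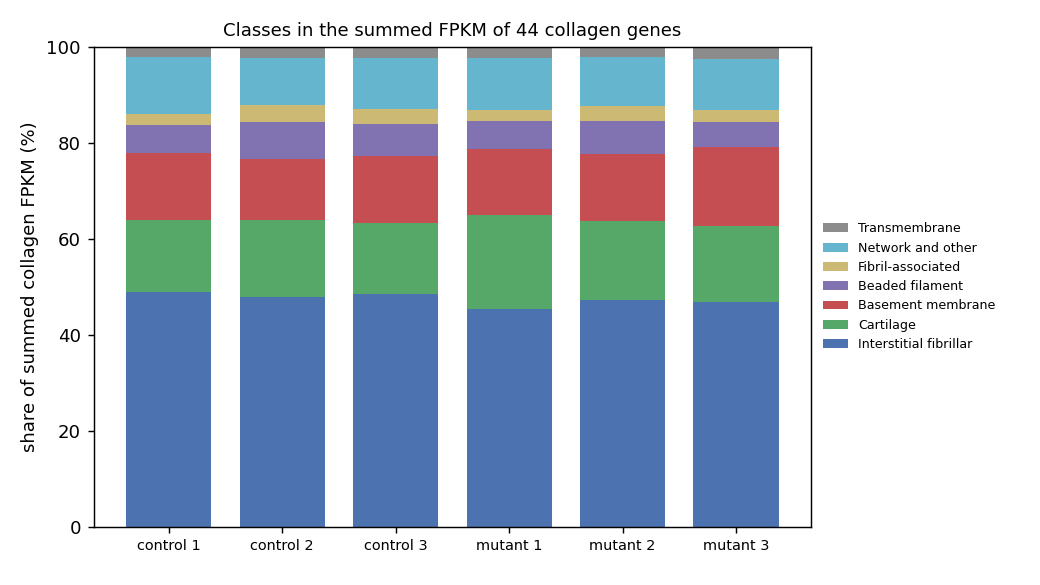
Share of each class in the summed FPKM of the 44 collagen genes, in percent, for each of the 6 samples. The interstitial fibrillar class at the base spans 45.3% to 48.9%, and the cartilage class is widest in mutant replicate 1, at 19.6%.

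The median log2 fold change was -0.19 over the 6 interstitial fibrillar genes tested, and all 6 were below 0. It was -0.34 over the 3 beaded filament genes and -0.34 over the 2 fibril-associated genes, all below 0. It was -0.18 over the 3 network and other genes and -0.12 over the 2 transmembrane genes. It was -0.046 over the 5 cartilage genes and -0.042 over the 5 basement membrane genes, with 3 of 5 below 0 in each. These medians rested on single controls. Without control replicate 2, the median was -0.035 for the interstitial fibrillar, -0.11 for the beaded filament and -0.071 for the fibril-associated genes, and with control replicate 1 left out it was -0.40, -0.55 and -0.63, the last with *Col14a1* added. The difference between the classes was not tested, since the genes of a class share samples and cells.

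Ratios of chains within a sample do not depend on how much collagen RNA the sample held. *Col1a1*/*Col1a2* was 0.541, 0.486 and 0.465 in controls and 0.450, 0.444 and 0.366 in mutants, so that each mutant was below each control. The gap lay between 0.450 and 0.465. The log2 difference of this ratio, mutant minus control, was -0.25, and -0.30 to -0.15 with a sample left out. How often the ratios of other gene pairs separate the groups was not computed. *Col6a1*/*Col6a2* was 0.681, 0.756 and 0.758 in controls and 0.758, 0.797 and 0.759 in mutants, and the groups touched. *Col6a3*/*Col6a1* was 0.338 to 0.431 in controls and 0.302 to 0.361 in mutants. *Col5a1*/*Col5a2* was 0.539 to 0.666 and 0.565 to 0.774. *Col3a1*/*Col1a1* compares chains of different collagen types and not of the same molecule. It was 1.55, 2.33 and 2.54 in controls and 1.95, 2.54 and 3.14 in mutants. The type IX ratios stood apart in a single sample. *Col9a1*/*Col9a3* was 2.35 and *Col9a2*/*Col9a3* was 1.93 in mutant replicate 3, against 1.22 to 1.50 and 1.18 to 1.41 in the other 5 samples. *Col11a1*/*Col11a2* was also highest there, at 7.19.

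**Figure D5:**
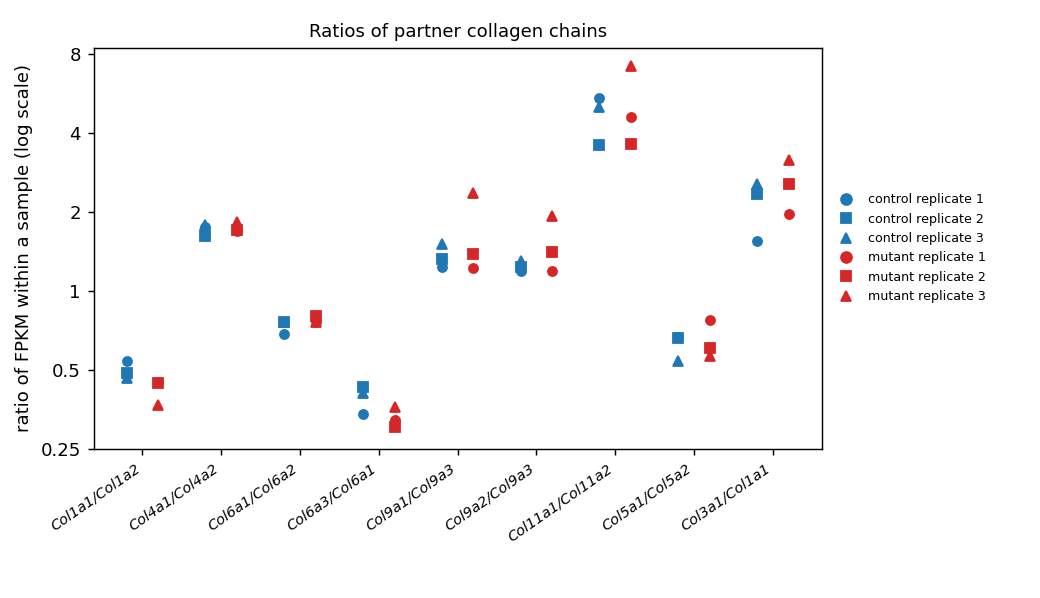
Ratio of FPKM of partner chains, and of *Col3a1* to *Col1a1*, within each sample (log axis), controls in blue and mutants in red. *Col1a1*/*Col1a2* is lower in each mutant than in each control, *Col4a1*/*Col4a2* stays between 1.61 and 1.82, and mutant replicate 3 is the highest point in both type IX ratios.

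Rbfox2 binds the RNA word UGCAUG, written TGCATG in DNA letters. After the stop codon of the chosen transcript, the word was present in 8 of the 26 collagen genes tested (30.8%) and in 32.0% of 9751 genes tested with such a transcript. The median log2 fold change was -0.23 over the 8 genes with the word and -0.17 over the other 18. Of the 7 genes with a p under 0.05 in the blocked fit, 4 hold the word. Among the 26 but outside the 7, *Col5a1* holds 4 such words, and *Col11a1*, *Col4a2* and *Col23a1* hold 1 each. Their log2 fold changes were -0.20, -0.061, -0.063 and 0.023, in that order, and their sites are not shown. The 7 were picked by their p in these data, and how often all genes with such a p hold the word was not computed. The 4 have 1423 (*Col1a1*), 2653 (*Col8a1*), 1763 (*Col5a2*) and 2178 (*Col12a1*) bases after the stop codon, against a median of 965 over the 26. The sites are shown with 10 bases on each side and the word in capitals, in build GRCm38. They lie in the part of the last exon after the stop codon. The word is at chr11:94952342-94952347 on the plus strand in Col1a1, 723 bases after the stop codon. It is at chr16:57626483-57626488 on the minus strand in Col8a1, at chr1:45375593-45375598 on the minus strand in Col5a2 and at chr9:79600483-79600488 on the minus strand in Col12a1. *Col5a2* holds 2 such words and *Col12a1* holds 3, and the one nearest the stop codon is shown.
Col1a1: acatcggacaTGCATGtgcaggctgg
Col8a1: tgtatttattTGCATGctttcctctc
Col5a2: aagacccccaTGCATGtcttaatatt
Col12a1: gctgtaactcTGCATGagacatagcc

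*Col6a2*, *Col6a3* and *Col26a1*, with 451, 732 and 1287 bases after the stop codon of the transcript used, have no such word there. In its coding sequence *Col6a3* holds 2 such words, and *Col8a1* and *Col12a1* hold 1 each. Of all 26 collagen genes tested, 12 hold the word in the coding sequence, against 30.4% of the 9751 genes tested with such a transcript. Introns were not searched, and the word in a sequence does not show that the protein binds it.

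Other genes of collagen assembly, a list of 49 enzymes, chaperones, fibril partners and receptors, were all in the table, and 33 were tested. Of these, 28 had a log2 fold change below 0 and 5 above 0, against 47.2% of all genes below 0, with a median of -0.10 against 0.0057 over all genes. The list summed to 2034, 2522 and 2300 FPKM in controls and 2051, 2335 and 2053 FPKM in mutants, the same order among controls as the collagen genes. At an unadjusted p under 0.05 in limma, 2 of 33 were lower and 0 higher, against 0.954% and 0.706% of all genes, and 0 passed an adjusted p of 0.05. *Fkbp14*, a prolyl isomerase of the endoplasmic reticulum that acts on procollagens, stood at 15.2, 15.8 and 14.0 FPKM in controls and 8.61, 7.47 and 6.45 FPKM in mutants. Every mutant was below every control by a wide gap, with a log2 fold change of -0.92 ± 0.111 (SE; limma adjusted p = 0.217). With the replicate block its limma adjusted p = 0.0852. *Leprel2* (*P3h3*), of the prolyl 3-hydroxylase family, stood at 43.2, 48.4 and 37.6 FPKM in controls and 38.2, 32.3 and 27.7 FPKM in mutants, a log2 fold change of -0.39 ± 0.141 (SE; limma adjusted p = 1.0). *Lox*, which cross-links collagen fibrils, was next, at 29.6, 39.4 and 30.1 FPKM in controls and 26.9, 32.7 and 17.8 FPKM in mutants, a log2 fold change of -0.37 ± 0.220 (SE; limma adjusted p = 1.0). *Serpinh1*, the collagen chaperone Hsp47, was chosen after its values were seen as a gene of high level, and stood at 413.8 to 443.3 FPKM in controls and 413.9 to 446.6 FPKM in mutants.

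The 18 genes below the filter summed to 25.9, 47.2 and 35.4 FPKM in controls and 28.5, 36.3 and 27.4 FPKM in mutants. The highest was *Col14a1*, at 4.40, 10.7 and 6.84 FPKM in controls and 4.51, 7.36 and 4.07 FPKM in mutants, and *Col25a1*, at a mean of 9.30 FPKM, was the lowest member inside it. *Col17a1*, a hemidesmosome protein of surface epithelium, was at 4.75 to 8.10 FPKM in controls and 4.82 to 5.71 FPKM in mutants. *Col11a2*, the partner of *Col11a1*, was at 3.15 to 9.17 FPKM and 3.17 to 7.26 FPKM. *Col13a1* was at 3.47 to 6.01 FPKM and 4.39 to 5.01 FPKM, *Col22a1* at 2.03 to 3.16 FPKM and 2.51 to 3.50 FPKM, and *Col7a1*, which anchors the epidermis, at 2.48 to 2.94 FPKM and 1.83 to 2.90 FPKM. Between 9 and 10 genes were below 1 FPKM in each sample.

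Several collagen genes lie next to each other in the genome. Besides *Col4a1* and *Col4a2*, the pairs *Col4a4*/*Col4a3* on chromosome 1 (71 bases apart) and *Col4a6*/*Col4a5* on the X chromosome (1308 bases apart) are head to head, and *Col3a1*/*Col5a2* on chromosome 1 are tail to tail (24614 bases apart). Levels of neighbours were near each other in some pairs and not in others. *Col4a4* and *Col4a3* were at means of 0.109 and 0.0814 FPKM over the 6 samples, while *Col4a5* was 5.04 to 6.40 times as high as *Col4a6*, values chosen after they were seen. *Col5a2* was 0.251 to 0.266 of *Col3a1* in controls and 0.233 to 0.251 in mutants, also chosen after its values were seen, with the mutant range below that of the controls by a margin smaller than the spread within either group. Where collagen genes overlap other genes, how reads were assigned is not stated, and these values are uncertain. On the opposite strand, *Col18a1* overlaps *Slc19a1* and *Col9a3* overlaps *Tcfl5*. On the same strand, *Col3a1* overlaps *Gm47302*, *Col1a2* overlaps *Gm43921* and *Col26a1* overlaps *Gm20485*, so the levels of the highest collagens are among these.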

How the data were processed

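Poly(A)+ RNA of 3 control and 3 *Rbfox2* mutant samples, labelled as independent biological replicates, was sequenced paired-end after TruSeq Stranded mRNA library preparation. Per the labels, reads were checked with FastQC 0.11.4 and aligned to GRCm38 with STAR. The authors deposited FPKM per gene for each sample, in a table of the series and in 6 single files that hold the same values (0 differences). The labels also list Cuffdiff. Whether it made the gene FPKM, and with what annotation and use of strand, is not given in the sources used here. Summed FPKM per sample was 528100 to 590200. The number of reads behind a value is unknown, and no count test was run, since FPKM are not counts. Among genes under 0.05 FPKM, 27.9% to 32.0% stood at a common ratio in the 6 pairs among replicates 2 and 3, against 1.15% to 7.99% in the 9 pairs with a first replicate, so whole reads were not recovered.

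Genes that exceeded 5 FPKM in each control or in each mutant, a cut-off taken from the study's Cuffdiff step, were compared on log2(FPKM + 1) with limma 3.58.1 in R 4.3.3, using an intensity trend, no covariate and Benjamini-Hochberg adjustment over all 10061 genes. Simulated data of the same 10061 genes held 50 genes each changed by -2, -1, 1 and 2 on the log2 scale. Of these, 96%, 92%, 90% and 100% were recovered, with 12 false calls. The log2 fold changes of the 26 collagen genes, -0.51 to 0.17, were smaller in size than these changes. Recovery of changes that small was not tested. Whether the recovery holds for the measured samples, where 0 genes passed an adjusted p of 0.05 in limma, was not tested. An exact permutation test, two-sided, was added for each collagen gene. Members, classes, the list of collagen assembly genes, the marker lists and the tests were chosen with earlier results of these data known. Genes were named if they were among the 12 highest collagens, had an unadjusted p under 0.05 or groups without overlap, led a class or were a partner chain above the filter. *Rbfox2* and *Pax3* were named as checks, and of the assembly list the 3 genes with the smallest p. Others are named as ranges or as chosen after their values were seen.

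Replicate numbers recur in both groups. Across genes, the deviation of a sample from the mean of its group correlated at 0.644, 0.258 and 0.513 between samples numbered 1, 2 and 3, each above 0.1, so the numbers were taken to pair the samples. Of the unlike pairs, control 3 with mutant 2 stood at 0.401 and control 2 with mutant 3 at 0.234, and the 4 with a single first replicate at -0.685 to -0.369, so that the values set the first replicates apart more than they tell 2 from 3. The pairing comes from these values, and no label ties the numbers to litters or days. Gene positions, coding sequences and bases after the stop codon came from GENCODE M21, matched by identifier for all 44 genes. Promoter windows came from RefSeq tables of GRCm38.p6. Alternatives were a pseudocount of 0.1, an FPKM filter of 1 or none, median-ratio scaling, quantile normalization, no trend, the replicate block, a term for the first replicates, a Y-linked covariate, replicates 2 and 3 only, and each sample left out.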

Additional observations from a re-analysis of the deposited data

How the results depend on the processing

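Under all 16 alternatives run, 0 collagen genes passed an adjusted p of 0.05 in limma, and the smallest adjusted p of any was 0.375, and at an unadjusted p under 0.05 counts ranged from 0 to 13. The 26 genes kept their direction with a pseudocount of 0.1, median-ratio scaling and quantile normalization. The filter, the trend, the replicate block and the term for the first replicates could not change a direction. In this balanced design they leave the log2 fold change as it is and alter only its SE and p. *Col1a1* was lower in mutants under all 16. Over the alternatives, 13 of 26 genes kept their direction and 13 did not. The count of collagen genes lower at an unadjusted p under 0.05 was 1, and 2 with an FPKM filter of 1 (1.40% of all genes), 0 with quantile normalization, 7 with the replicate block, 2 with a term for the first replicates (3.46% of all genes), 2 with the Y-linked covariate (1.25%) and 8 with replicates 2 and 3 only (5.74%). Leaving out a sample gave 0 to 13. The 8 and the 13 are of 29 genes that then passed the filter, and 7 and 11 of them are among the 26. The count of genes without overlap was 1 (5.0% of all genes, both directions), and 2 with an FPKM filter of 1 (5.96%), 3 with no filter (6.34%) and 13 of 29 with replicates 2 and 3 only (45.2%). With a sample left out it was 1 to 12, the 12 being of 29 without control replicate 1 (24.8% of all genes), and all genes stood at 8.43% to 24.8%. Fewer samples make groups without overlap more frequent.

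With a sample left out, the median log2 fold change ranged from -0.31 to 0.00106, that of the basement membrane class from -0.20 to 0.087, of the cartilage class from -0.20 to 0.16 of the transmembrane class from -0.41 to 0.058, of the interstitial fibrillar class from -0.40 to -0.035, of the beaded filament class from -0.55 to -0.11, of the fibril-associated class from -0.63 to -0.071 and of the network class from -0.27 to -0.087. The lowest values came without control replicate 1, and the highest without control replicate 2, or without mutant replicate 3 for cartilage. The genes that changed direction on leaving out a sample ranged from -0.41 to 0.022 (*Col3a1*), -0.17 to 0.11 (*Col2a1*), -0.20 to 0.087 (*Col4a1*), -0.24 to 0.11 (*Col4a2*), -0.028 to 0.088 (*Col18a1*), -0.11 to 0.34 (*Col9a1*), -0.39 to 0.011 (*Col5a1*), -0.046 to 0.38 (*Col9a2*), -0.26 to 0.21 (*Col9a3*), -0.31 to 0.14 (*Col11a1*), -0.10 to 0.15 (*Col23a1*), -0.40 to 0.048 (*Col16a1*) and -0.075 to 0.076 (*Col4a5*). The 13 that kept their direction moved too, such as *Col12a1* (-0.87 to -0.19), *Col6a3* (-0.84 to -0.18), *Col5a2* (-0.50 to -0.084), *Col1a1* (-0.53 to -0.25) and *Col6a1* (-0.52 to -0.0093). With the Y-linked covariate, *Col4a1* was at 0.00084 and *Col9a2* at -0.065. With replicates 2 and 3 only, *Col9a1* was at -0.095, *Col9a2* at -0.061, *Col23a1* at -0.060 and *Col4a5* at -0.031. The cause of these shifts was not tested. With the replicate block, the count of collagen genes past an adjusted p of 0.05 remained 0. Precision was limited by 3 samples per group and an unknown depth.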
